A study of Homo sapiens with 15 samples.

Results

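Cathepsins are the proteases of the lysosome, and cystatins are small proteins that hold many of them in check. The genes described here were picked from these families by name, through their Ensembl IDs in the table of read counts: 6 cathepsins (CTSS, CTSK, CTSB, CTSL, CTSD and CTSZ) and 4 cystatins (CST1, CST3, CST4 and CSTB). They are 10 of the 57736 genes in the table, and all 10 passed the filter on low counts that left 13516 genes for testing.

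CTSS, CTSK, CTSB, CTSL and CTSZ are cysteine proteases made as inactive precursors and switched on by the acid of the lysosome, and CTSD is an aspartic protease of the same compartment. Some of each can be secreted, and outside the cell CTSK and CTSS cut collagen and elastin. CST1, CST3 and CST4 are secreted cystatins that block cysteine cathepsins by filling their active site, whereas CSTB works inside the cell; cystatins do not block CTSD. Secreted proteases and inhibitors are part of the mix that senescent fibroblasts release.

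The study asked how METTL14, the partner of METTL3 in the enzyme that writes m6A on RNA, bears on senescence in IMR90, a human fetal lung fibroblast line that RAS drives into senescence. The groups R298P, wild-type, knockdown and siControl RAS carried a RAS retrovirus and were sampled as senescent cells. In R298P cells METTL14 was knocked down by siRNA and a lentivirus supplied METTL14 with the R298P substitution, which impairs methylation. In wild-type cells the same knockdown was paired with lentiviral wild-type METTL14. Knockdown cells received siMETTL14 and a vector in place of METTL14; the labels do not say whether siControl RAS and control cells also did. siControl RAS cells received RAS and a non-targeting siRNA, and control cells received the vector retrovirus and the same non-targeting siRNA, without RAS. The first siRNA came 4 days after the retrovirus, and RNA was taken 48 hours after the second siRNA and the lentivirus. Each group has 3 libraries. The labels do not say whether these were separate cultures, so p-values measure the spread between libraries, which may be technical.

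CST1 and CST4 are near-copies of each other, which matters for how their reads can be told apart. Their coding sequences were identical at 92.7% of 426 aligned bases, and the last 300 bases of the transcripts, where a 3′ method reads, at 90.3%. Of the 251 stretches of 50 bases in that end of CST1, 53 also occur somewhere in the CST4 transcript. The last 90 coding bases are shown 5′ to 3′ for CST1, CST4 and their sister CST2 (chromosome 20; transcripts of GENCODE 29, bases 408 to 497 of each), with capitals at the 5 positions where the 3 genes differ.
CST1: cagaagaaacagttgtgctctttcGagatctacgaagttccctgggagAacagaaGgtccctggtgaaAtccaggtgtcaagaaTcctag
CST4: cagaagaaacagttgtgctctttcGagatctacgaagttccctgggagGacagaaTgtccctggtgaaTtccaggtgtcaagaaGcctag
CST2: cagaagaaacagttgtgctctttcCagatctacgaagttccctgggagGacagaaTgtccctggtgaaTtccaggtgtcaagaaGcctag
CST1 differs from CST4 at 4 of these bases and CST4 from CST2 at 1. The split of reads between CST1 and CST4 is therefore uncertain, and their sum is given beside each. CST2 had 33 counts over all 15 libraries, and adding it moved no call of the sum.

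Libraries held 4917661 to 7763084 counts. METTL14 averaged 945 ± 80.4 normalised CPM (counts scaled to a common library size) in R298P cells, 545 ± 32.0 in wild-type cells, 6.07 ± 2.88 in knockdown cells, 22.0 ± 3.66 in siControl RAS cells and 21.2 ± 2.11 in control cells (SD, n = 3 each), so the knockdown and both add-backs showed in the direction of their labels. All 10 fibroblast markers were present, and they summed to 21901 to 22897 CPM in siControl RAS libraries, against 10595 to 10773 CPM in control libraries and 18042 to 18815 CPM in knockdown libraries. The collagen genes carried most of that sum (COL1A1 at 11896 CPM in siControl RAS cells, against 2698 CPM in control cells), while VIM (2646 CPM, against 5428 CPM) and THY1 (399 CPM, against 572 CPM) were called lower in siControl RAS cells. Of 12 leukocyte and macrophage markers, LYZ, AIF1, ITGAM, CD163, TYROBP and HLA-DRA were at 0 in all 15 libraries. In the epithelial and salivary list, CDH1, KRT5, KRT14, STATH, HTN1, HTN3 and SMR3B were at 0, in the osteoclast list CALCR and OCSTAMP, and in the endothelial list CDH5 and ERG. PECAM1 of the endothelial list could not be matched by symbol, so that list rests on 4 of its 5 genes. The endothelial list summed to 31.7 to 35.5 CPM in siControl RAS libraries, against 14.4 to 24.0 CPM in control libraries, with TEK (27.5 CPM, against 17.4 CPM; adjusted p = 0.00431) and ROBO4 (6.48 CPM, against 1.70 CPM; adjusted p = 0.00661) called higher; its part in the results was not tested. Because 3′ libraries give about 1 tag per transcript, levels of different genes are compared without dividing by length.

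The protease CTSS, best known from antigen-presenting cells, was close to absent without RAS and abundant with it. CTSS stood at 131, 132 and 153 CPM in the siControl RAS libraries, against 0.781, 0.824 and 1.16 CPM in the control libraries, which rest on 17 counts in all. No library of one group came near the other, and the fitted log2 change was 7.20 ± 0.21 (SE; adjusted p = 3.88e-25, edgeR quasi-likelihood test), a 147-fold rise. In rank of mean level among the tested genes CTSS was 1537th in siControl RAS cells and 12747th in control cells. The whole leukocyte and macrophage list summed to 14.7 to 25.0 CPM in siControl RAS libraries, against 3.29 to 8.60 CPM in control libraries. Nearly all of this was CD68, a lysosomal membrane protein, which rose to 18.8 CPM in siControl RAS cells, against 4.76 CPM in control cells. The part of this list in the CTSS result was not tested. In bulk RNA, fewer cells of a type and less RNA per cell cannot be told apart.

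CTSK, the collagen-cutting protease of bone-resorbing osteoclasts, followed the same course from a higher start. CTSK had 152, 159 and 176 CPM in siControl RAS libraries, against 9.53, 12.0 and 10.5 CPM in control libraries. This was a log2 change of 3.92 ± 0.12 (adjusted p = 3.93e-24), or 15.2-fold. The 5 osteoclast markers summed to 0.817 to 2.85 CPM in siControl RAS libraries, against 0.625 to 1.16 CPM in control libraries; their part in the CTSK result was not tested.

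CTSB, a broadly active lysosomal protease, was the most abundant of the 10 genes in all groups and rose by less. It had 1344, 1298 and 1431 CPM in siControl RAS libraries, against 618, 601 and 586 CPM in control libraries (log2 change 1.17 ± 0.06, adjusted p = 1.15e-18). This placed it 75th in level of 13516 genes in siControl RAS cells and 217th in control cells. CTSZ, a carboxypeptidase that trims residues from the ends of proteins, had 80.4, 86.4 and 114 CPM in siControl RAS libraries, against 50.9, 71.3 and 73.4 CPM in control libraries. The groups did not overlap but lay close, with a log2 change of 0.52 ± 0.13 (adjusted p = 0.00131).

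The other 2 cathepsins did not pass the test. CTSL, which processes many lysosomal and secreted proteins, had 67.3, 67.3 and 71.8 CPM in siControl RAS libraries, against 56.9, 58.5 and 75.9 CPM in control libraries (log2 change 0.11 ± 0.14, adjusted p = 0.564). CTSD had 267, 244 and 264 CPM in siControl RAS libraries, against 248, 243 and 254 CPM in control libraries (log2 change 0.06 ± 0.09, adjusted p = 0.630). Libraries of both groups overlapped in CTSL and in CTSD.

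**Figure D1:**
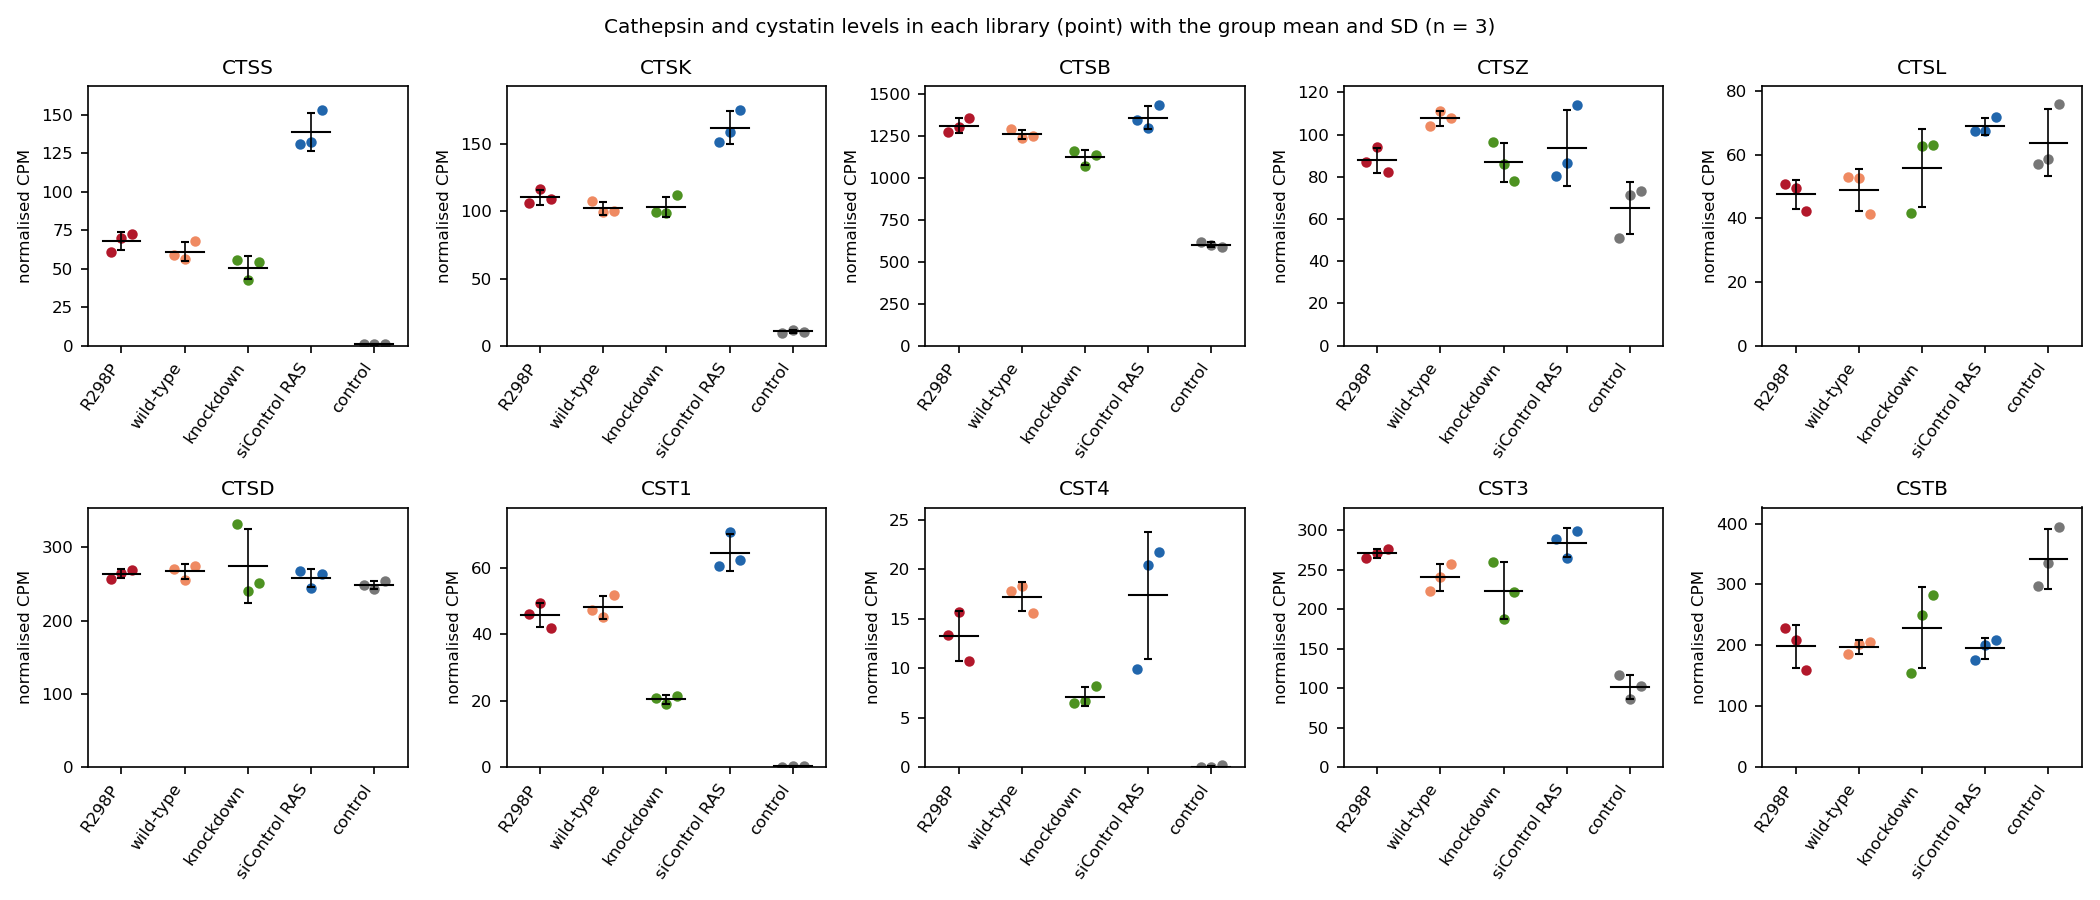
Normalised CPM (linear axes from 0, a scale for each gene) of the 10 genes in the 15 libraries; points are libraries, the long bar is the group mean and the whisker the SD of 3. CTSS, CTSK, CST1 and CST4 are near the bottom in control cells, CTSD means lie between 248 and 274 CPM in all groups, and CSTB is highest in control cells.

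Among the cystatins, the salivary-type inhibitors CST1 and CST4 showed the steepest gain. CST1, first described in saliva, had 60.6, 71.0 and 62.4 CPM in siControl RAS libraries, against 0, 0.329 and 0.333 CPM in control libraries. The counts were 1174 in siControl RAS cells, against 4 in control cells, a depth-corrected ratio of 297 with an exact 95% interval of 116 to 1090 that covers counting error only. CST4 had 9.94, 20.4 and 21.7 CPM in siControl RAS libraries, against 0, 0 and 0.166 CPM in control libraries. With a single control count its ratio of 307 has an interval of 54.7 to 12173. The sum of both genes reached 82.0 ± 10.6 CPM in siControl RAS cells, against 0.276 ± 0.254 CPM in control cells (SD, n = 3 each; adjusted p = 7.64e-23). The epithelial and salivary list, in which STATH, HTN1, HTN3 and SMR3B of saliva were at 0, summed to 28.3 to 38.4 CPM in siControl RAS libraries, against 106 to 116 CPM in control libraries, and rested mainly on KRT18 and KRT19; its part in the CST1 and CST4 result was not tested.

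CST3, the cystatin made by nearly all cells and found throughout body fluids, had 289, 264 and 299 CPM in siControl RAS libraries, against 117, 86.5 and 102 CPM in control libraries. The groups lay far apart, with a log2 change of 1.48 ± 0.10 (adjusted p = 1.14e-12). CSTB, the inhibitor of the cytosol, was the 1 gene of the set that fell. It had 176, 201 and 209 CPM in siControl RAS libraries, against 297, 335 and 394 CPM in control libraries (log2 change -0.81 ± 0.21, adjusted p = 0.00762), with no overlap.

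In all, 8 of the 10 genes were called between siControl RAS and control cells, 7 higher and 1 lower. The background of calls in this comparison was high, at 45.9% of tested genes (24.0% higher, 21.9% lower). The median log2 change was 1.33 over the 10 genes, beside -0.0037 over all genes tested. Summed over the 6 cathepsins the level was 2079 ± 116 CPM in siControl RAS cells, against 991 ± 8.96 CPM in control cells (SD, n = 3 each). Summed over the 4 cystatins it was 561 ± 28.9 CPM in siControl RAS cells, against 444 ± 45.7 CPM in control cells. The ratio of these sums was therefore 3.70 ± 0.121 in siControl RAS cells and 2.25 ± 0.200 in control cells, without overlap of libraries. The cystatin sum mixes cytosolic CSTB, which fell to 195 CPM from 342 CPM in control cells, with secreted CST1, CST3 and CST4, which all rose. The cathepsin sum includes CTSD, which cystatins do not block. The ratio is thus no measure of cathepsins against the secreted cystatins, which were not set against them alone.

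The make-up of each class changed as well. CTSS held 6.66% of cathepsin CPM in siControl RAS cells, against 0.0930% in control cells, and CTSK held 7.80%, against 1.08%. CTSD made up 12.4% of cathepsin CPM in siControl RAS cells, against 25.1% in control cells, at nearly the same level of its own. CTSB kept the largest share, 65.3% in siControl RAS cells and 60.8% in control cells. Of cystatin CPM, CSTB held 34.7% in siControl RAS cells, against 76.8% in control cells, while CST3 held 50.6%, against 23.1%. The leading cystatin transcript was thus CST3 with RAS and CSTB without it.

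Promoters of 4 of the 10 genes (CTSL, CTSD, CTSZ and CST3) could be matched in a RefSeq table. Shown are those of a gene that did not pass the test, CTSD, and of one that rose, CST3. Many lysosomal genes carry CACGTG, the site bound by the factors TFEB, TFE3 and MITF, near their start. The 250 bases before the start site are given 5′ to 3′ on the gene's strand with CACGTG in capitals (GRCh38.p14; CTSD at chr11:1763928-1764177, minus strand; CST3 at chr20:23637956-23638205, minus strand).
CTSD: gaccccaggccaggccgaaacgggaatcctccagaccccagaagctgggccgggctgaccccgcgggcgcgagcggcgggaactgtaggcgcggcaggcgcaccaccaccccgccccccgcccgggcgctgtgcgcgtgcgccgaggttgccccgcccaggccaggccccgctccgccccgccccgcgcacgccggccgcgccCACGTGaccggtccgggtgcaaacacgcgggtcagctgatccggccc
CST3: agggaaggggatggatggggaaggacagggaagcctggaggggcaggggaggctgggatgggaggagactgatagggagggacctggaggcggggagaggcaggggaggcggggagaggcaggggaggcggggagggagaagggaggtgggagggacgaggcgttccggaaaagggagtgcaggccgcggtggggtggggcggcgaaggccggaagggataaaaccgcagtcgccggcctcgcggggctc
The CTSD window holds 1 CACGTG, starting 47 bases before the start site, and the CST3, CTSL and CTSZ windows hold none. The motif reads the same on both strands and is found in 6.34% of 35116 promoters of this length. GGGCGG, the GC box, searched on both strands, occurs 5 times in the CTSD window, 1 time in CST3, 3 times in CTSL and 5 times in CTSZ, and at least once in 42.6% of promoters. The 2 motifs share no bases where they match in CTSD.

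Knockdown cells had 6 of the 10 genes called lower than in siControl RAS cells, and 0 called higher. The labels do not say whether siControl RAS cells carried a vector, as knockdown cells did. The siRNA and the vector therefore cannot be told apart in this comparison. The background here was 15.5% of tested genes called (8.06% lower). The median log2 change of the 10 genes was -0.32, beside -0.0028 over all genes tested. At an unadjusted p under 0.05, 7 were lower and 0 higher, and DESeq2 and limma-voom also called 6 lower and 0 higher.

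The falls were steepest in CST1, CTSS and CST4. CST1 had 20.7, 19.0 and 21.5 CPM in knockdown libraries, against 60.6, 71.0 and 62.4 CPM in siControl RAS libraries. Its log2 change was -1.66 ± 0.16 (adjusted p = 8.68e-10). CTSS had 55.5, 42.4 and 54.3 CPM in knockdown libraries, against 131, 132 and 153 CPM in siControl RAS libraries, a log2 change of -1.45 ± 0.12 (adjusted p = 5.21e-11). In both genes every knockdown library lay below the lowest siControl RAS library, yet far above control. The leukocyte and macrophage list summed to 6.79 to 14.3 CPM in knockdown libraries, against 14.7 to 25.0 CPM in siControl RAS libraries, and the epithelial and salivary list to 62.5 to 79.9 CPM, against 28.3 to 38.4 CPM; their part in these falls was not tested.

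CST4 had 6.50, 6.64 and 8.21 CPM in knockdown libraries, against 9.94, 20.4 and 21.7 CPM in siControl RAS libraries (log2 change -1.27 ± 0.30, adjusted p = 0.00275). The first siControl RAS library was well below its fellows. Summed with CST1 the level was 27.5 ± 2.06 CPM in knockdown cells, against 82.0 ± 10.6 CPM in siControl RAS cells (log2 change -1.57 ± 0.15, adjusted p = 5.31e-10). CTSK had 99.4, 98.5 and 112 CPM in knockdown libraries, against 152, 159 and 176 CPM in siControl RAS libraries (log2 change -0.65 ± 0.10, adjusted p = 5.95e-06). In fold terms CTSK was 1.57-fold lower and CTSS 2.74-fold lower; the difference between the genes was not tested.

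The abundant protease CTSB and its inhibitor CST3 were lower by 1.21-fold and 1.27-fold. CTSB had 1161, 1072 and 1135 CPM in knockdown libraries, against 1344, 1298 and 1431 CPM in siControl RAS libraries (log2 change -0.27 ± 0.06, adjusted p = 0.000459). CST3 had 260, 188 and 222 CPM in knockdown libraries, against 289, 264 and 299 CPM in siControl RAS libraries (log2 change -0.35 ± 0.10, adjusted p = 0.0158). The call of CST3 was lost without siControl RAS replicate 1 (adjusted p = 0.0617), siControl RAS replicate 3 (0.0763), knockdown replicate 2 (0.121) or knockdown replicate 3 (0.0653).

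CTSL, CTSD, CTSZ and CSTB did not pass. CTSL averaged 55.7 ± 12.2 CPM in knockdown cells, against 68.8 ± 2.63 CPM in siControl RAS cells (adjusted p = 0.185), and CTSZ averaged 86.8 ± 9.30 CPM, against 93.5 ± 17.9 CPM (adjusted p = 0.669). CTSD averaged 274 ± 50.2 CPM in knockdown cells, against 258 ± 12.3 CPM in siControl RAS cells (adjusted p = 0.597). CSTB averaged 228 ± 66.8 CPM in knockdown cells, against 195 ± 17.3 CPM in siControl RAS cells (adjusted p = 0.555; SD, n = 3 each throughout). Knockdown replicate 1 stood apart in 3 of these genes: it had 41.7 CPM of CTSL, against 62.7 and 62.9 in its fellows, 332 CPM of CTSD, against 240 and 251, and 154 CPM of CSTB, against 250 and 282. Without that library CSTB was called higher in knockdown cells (log2 change 0.449, adjusted p = 0.0406).

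The fall left the cells well short of the level in control cells. Knockdown cells differed from control cells in 8 of the 10 genes, 7 higher and 1 lower, where the background was 36.0% of tested genes (19.2% higher, 16.7% lower). CTSS was still 5.75 ± 0.22 higher on the log2 scale, CTSK 3.27 ± 0.12, CTSB 0.90 ± 0.06 and CST3 1.13 ± 0.10. The summed cathepsins were at 1693 ± 92.5 CPM in knockdown cells, between 2079 ± 116 CPM in siControl RAS cells and 991 ± 8.96 CPM in control cells. The cathepsin to cystatin ratio was 3.56 ± 0.448 in knockdown cells, against 3.70 ± 0.121 in siControl RAS cells. CSTB was lower in knockdown than in control cells by a log2 change of -0.58 ± 0.21 (adjusted p = 0.0493), a call lost without control replicate 2 (0.0920) or 3 (0.161), knockdown replicate 1 (0.0548) or 2 (0.0739), and in 3 other settings. The call of CTSZ (adjusted p = 0.0127) was lost without control replicate 1 (0.130) or knockdown replicate 1 (0.0691), and without knockdown replicate 2 CTSD was called higher (0.0473).

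**Figure D2:**
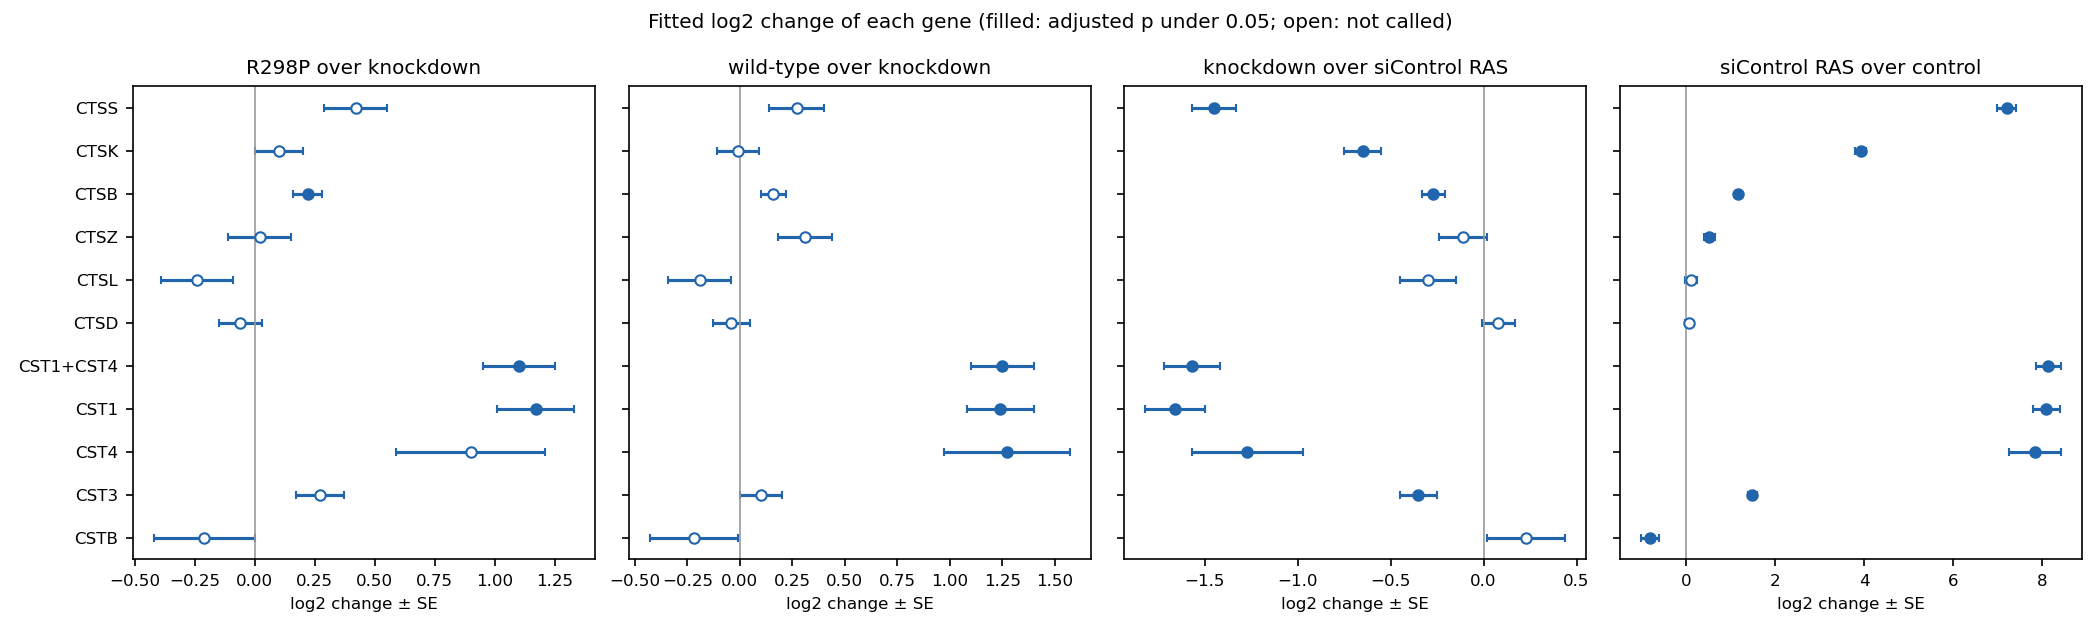
Fitted log2 change (horizontal axis, a scale for each panel) with its SE for each gene and for the CST1 and CST4 sum in 4 comparisons; filled points passed an adjusted p under 0.05. CST1 and the sum are to the left of 0 in knockdown over siControl RAS cells and to the right in both add-backs over knockdown cells, while CTSK is near 0 in both add-back panels.

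With METTL14 supplied again CST1 rose, and most of the other genes did not pass the test. CST1 had 47.3, 45.3 and 52.0 CPM in wild-type libraries, against 20.7, 19.0 and 21.5 CPM in knockdown libraries, with a log2 change of 1.24 ± 0.16 (adjusted p = 6.90e-06). CST4 had 17.8, 18.3 and 15.6 CPM in wild-type libraries, against 6.50, 6.64 and 8.21 CPM in knockdown libraries. Its log2 change of 1.27 ± 0.30 was called (adjusted p = 0.0352), but the call was lost without each of the 6 libraries in turn (0.0702 to 0.166). The sum did not share that weakness: at 65.4 ± 2.04 CPM in wild-type cells, against 27.5 ± 2.06 CPM in knockdown cells (adjusted p = 1.24e-06), it was called without each library in turn.

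These were the 2 genes called of the 10 in wild-type over knockdown cells, where the background was 0.621% of tested genes (0.326% higher). CTSS had 59.0, 56.1 and 68.2 CPM in wild-type libraries, against 55.5, 42.4 and 54.3 CPM in knockdown libraries (log2 change 0.27 ± 0.13, adjusted p = 0.632). CTSK averaged 102 ± 4.72 CPM in wild-type cells, against 103 ± 7.54 CPM in knockdown cells (SD, n = 3 each; log2 change -0.01 ± 0.10, adjusted p = 0.999). CTSB had 1290, 1237 and 1248 CPM in wild-type libraries, against 1161, 1072 and 1135 CPM in knockdown libraries, without overlap but not called (adjusted p = 0.301). At an unadjusted p under 0.05, 5 genes were higher and 0 lower.

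CST1 was also higher in R298P cells. CST1 had 46.1, 49.4 and 42.0 CPM in R298P libraries, against 20.7, 19.0 and 21.5 CPM in knockdown libraries (log2 change 1.17 ± 0.16, adjusted p = 1.94e-05). CST4 had 13.4, 15.7 and 10.7 CPM in R298P libraries, against 6.50, 6.64 and 8.21 CPM in knockdown libraries, apart but not called (log2 change 0.90 ± 0.31, adjusted p = 0.214). The sum was 59.1 ± 6.19 CPM in R298P cells, against 27.5 ± 2.06 CPM in knockdown cells (SD, n = 3 each; adjusted p = 1.25e-05).

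CTSB was the second gene called of the 10 in R298P over knockdown cells, where the background was 1.09% of tested genes (0.540% higher). It had 1270, 1301 and 1357 CPM in R298P libraries, against 1161, 1072 and 1135 CPM in knockdown libraries (log2 change 0.22 ± 0.06, adjusted p = 0.0385). The call was lost without knockdown replicate 2 (0.201) or 3 (0.123), without R298P replicate 1 (0.0633), 2 (0.136) or 3 (0.188), without the filter on low counts (0.0625) and with only the 2 groups in the fit (0.183). CTSS had 61.1, 70.0 and 72.6 CPM in R298P libraries, against 55.5, 42.4 and 54.3 CPM in knockdown libraries (log2 change 0.42 ± 0.13, adjusted p = 0.116). CST3 averaged 270 ± 5.81 CPM in R298P cells, against 224 ± 36.2 CPM in knockdown cells (adjusted p = 0.283); without knockdown replicate 1 it was called (log2 change 0.397, adjusted p = 0.0327). Both add-backs were compared with the same 3 knockdown libraries, so they are not independent of each other.

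**Figure D3:**
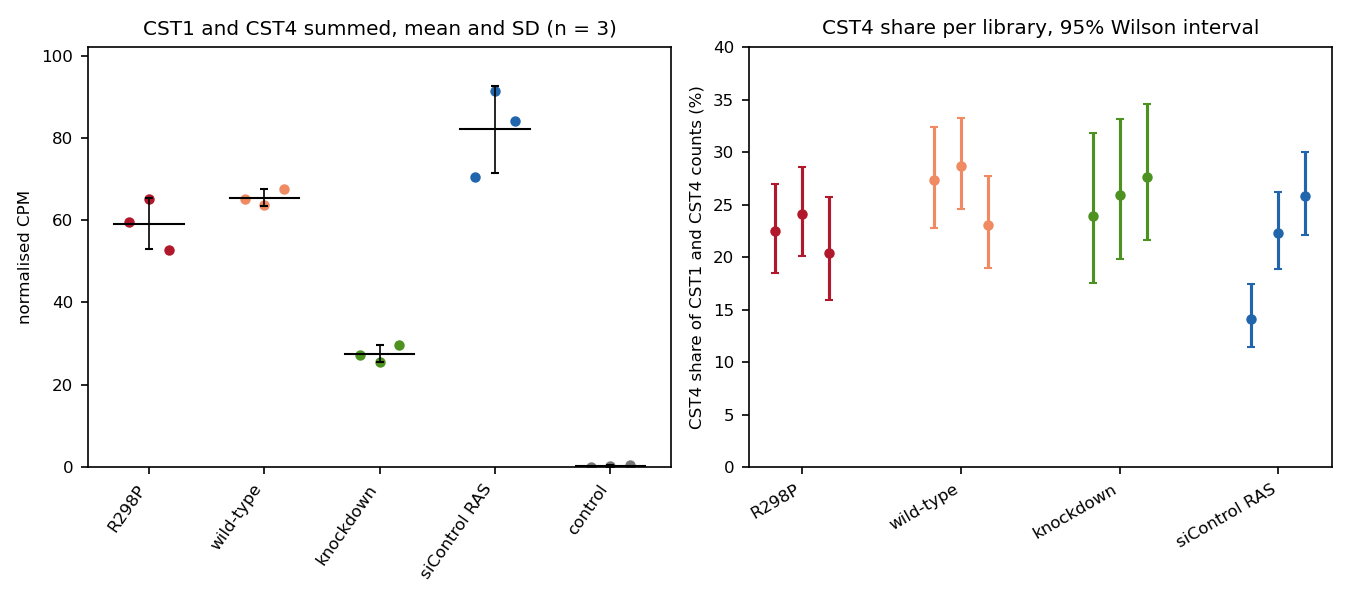
Left, summed normalised CPM of CST1 and CST4 by library with group mean and SD (n = 3); right, the CST4 percentage of their joint counts in the 12 RAS libraries with 95% Wilson intervals. The knockdown libraries lie between 25.6 and 29.7 CPM, below all other RAS libraries, and the CST4 share is 14.1% in 1 siControl RAS library and 20.4% to 28.7% in the other RAS libraries.

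The share of CST4 in the joint counts was 22.5%, 24.1% and 20.4% in R298P libraries, 27.3%, 28.7% and 23.1% in wild-type libraries, 23.9%, 25.9% and 27.6% in knockdown libraries, and 14.1%, 22.3% and 25.8% in siControl RAS libraries. The lowest share, with a Wilson interval of 11.4% to 17.4%, belonged to the deepest library, siControl RAS replicate 1. Control libraries had at most 3 joint counts, too few for a share.

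Between R298P and wild-type cells 0 of the 10 genes were called by edgeR, beside a background of 0.0222% of tested genes. At an unadjusted p under 0.05 there was 1 lower gene, CTSZ, and DESeq2 and limma-voom called 0. CTSZ had 87.0, 93.9 and 82.3 CPM in R298P libraries, against 104, 111 and 108 CPM in wild-type libraries (log2 change -0.30 ± 0.13, adjusted p = 0.980). These libraries did not overlap, but over the whole table the difference missed the threshold by far. METTL14 itself was 1.73-fold higher in R298P than in wild-type cells (log2 change 0.79 ± 0.12, adjusted p = 0.0322). The substitution and the METTL14 level therefore cannot be told apart between these groups. The summed CST1 and CST4 differed by a log2 change of -0.15 ± 0.14 (adjusted p = 1.00), with R298P libraries at 52.7 to 65.1 CPM and wild-type libraries at 63.6 to 67.6 CPM.

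Set against siControl RAS cells, both add-backs were lower in CTSS, CTSK and CTSL. METTL14 RNA was 42.5-fold higher in R298P and 24.6-fold higher in wild-type than in siControl RAS cells. The siRNA, the lentivirus and the level of METTL14 cannot be told apart in these comparisons. Of the 10 genes, 3 were called lower in wild-type cells (background 13.0%, with 6.67% of tested genes lower) and 4 in R298P cells (background 13.4%, with 7.14% lower), and 0 were higher at any unadjusted p under 0.05. CTSS was lower by a log2 change of -1.03 ± 0.12 in R298P cells (adjusted p = 8.09e-08) and -1.18 ± 0.12 in wild-type cells (adjusted p = 5.10e-09). For CTSK the changes were -0.55 ± 0.10 in R298P cells (adjusted p = 0.000109) and -0.66 ± 0.10 in wild-type cells (adjusted p = 5.86e-06).

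CTSL, uncalled in knockdown cells, had 50.6, 49.6 and 42.2 CPM in R298P libraries and 52.9, 52.5 and 41.3 CPM in wild-type libraries, against 67.3, 67.3 and 71.8 CPM in siControl RAS libraries. Both add-backs lay below all siControl RAS libraries (adjusted p = 0.0117 for R298P and 0.0209 for wild-type). The R298P call was lost without R298P replicate 3 (0.0757), and the wild-type call without wild-type replicate 3 (0.146) or siControl RAS replicate 3 (0.0712). Both add-backs share these siControl RAS libraries.

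CST1 was the fourth gene lower in R298P than in siControl RAS cells (log2 change -0.49 ± 0.15, adjusted p = 0.0261). That call was lost without siControl RAS replicate 2 (0.137) or R298P replicate 1 (0.0749) or 3 (0.125). In wild-type cells CST1 changed by -0.42 ± 0.15 (adjusted p = 0.0638) and was called by DESeq2 (0.0328), by limma-voom (0.0169) and with only the 2 groups in the fit (0.0255). The sum with CST4 had a log2 change of -0.47 ± 0.14 in R298P cells (adjusted p = 0.0229) and -0.32 ± 0.14 in wild-type cells (adjusted p = 0.141). Leaving out siControl RAS replicate 2 or 3 or R298P replicate 1 or 3 ended the R298P call of the sum (0.0672 to 0.145).

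Ordered by mean level, CTSS, CTSK, CTSB, CST1, CST3 and CST4 were all highest in siControl RAS cells and lowest in control cells, and for each of them the step to control was called. R298P and wild-type cells each differed from control cells in 9 of the 10 genes, beside 37.4% of all tested genes for R298P and 37.0% for wild-type. In each, 7 were higher and 2 lower than in control cells. The lower genes were CSTB and CTSL (CTSL by edgeR, adjusted p = 0.0217 for R298P and 0.0404 for wild-type). For wild-type DESeq2 called 1 gene lower. In CTSS and CTSK the step below siControl RAS was called too, while R298P, wild-type and knockdown cells were not told apart as neighbours. In CST1 the called steps lay elsewhere, between R298P and knockdown cells (adjusted p = 1.94e-05) and between knockdown and control cells (adjusted p = 2.13e-17), whereas siControl RAS, wild-type and R298P were not separated from their neighbours. In CTSB and CST3 no neighbouring RAS groups were separated. CTSD, with group means from 248 to 274 CPM, had no called step between neighbours, nor had CTSL. CSTB had its 1 called step between control and knockdown cells.

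Other members of the 2 families were read from a list of 24 genes. Of these, 11 had 0 counts in all 15 libraries, among them CTSG, CTSW, CST5 and CST7, and 7 passed the filter, all proteases. In siControl RAS over control cells, 6 of the 7 rose and 0 fell (median log2 change 1.15, beside -0.0037 over all genes tested, of which 45.9% were called and 24.0% called higher). CTSF, a cysteine cathepsin, rose to 17.3 CPM in siControl RAS cells, against 5.78 CPM in control cells (log2 change 1.57 ± 0.28, adjusted p = 1.65e-05). CTSO, a related protease, rose to 14.4 CPM, against 6.01 CPM (log2 change 1.26 ± 0.28, adjusted p = 0.000266).

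CTSC, which activates serine proteases by removing dipeptides, went the other way from CTSS between siControl RAS and knockdown cells. CTSC averaged 336 ± 19.8 CPM in knockdown cells, 205 ± 12.6 CPM in siControl RAS cells and 106 ± 7.80 CPM in control cells (SD, n = 3 each). It rose in knockdown over siControl RAS cells by a log2 change of 0.72 ± 0.08 (adjusted p = 5.73e-09). This was the 1 call of edgeR among the 7, near the background of 15.5% of all tested genes called. DESeq2 and limma-voom each called 1 more gene, CTSF, as lower. CTSF averaged 10.5 CPM in knockdown cells, against 17.3 CPM in siControl RAS cells (edgeR adjusted p = 0.0647). With METTL14 supplied again CTSC stayed high, at 389 ± 9.97 CPM in R298P cells and 375 ± 24.7 CPM in wild-type cells. These levels exceeded siControl RAS by log2 changes of 0.93 ± 0.08 (adjusted p = 2.14e-11) and 0.87 ± 0.08 (adjusted p = 7.85e-11). By edgeR, DESeq2 and limma-voom, 0 of the 7 were called in either add-back over knockdown cells. The edgeR background there was 1.09% of all tested genes for R298P and 0.621% for wild-type. At an unadjusted p under 0.05, 3 were higher in R298P and 1 in wild-type cells.

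**Figure D4:**
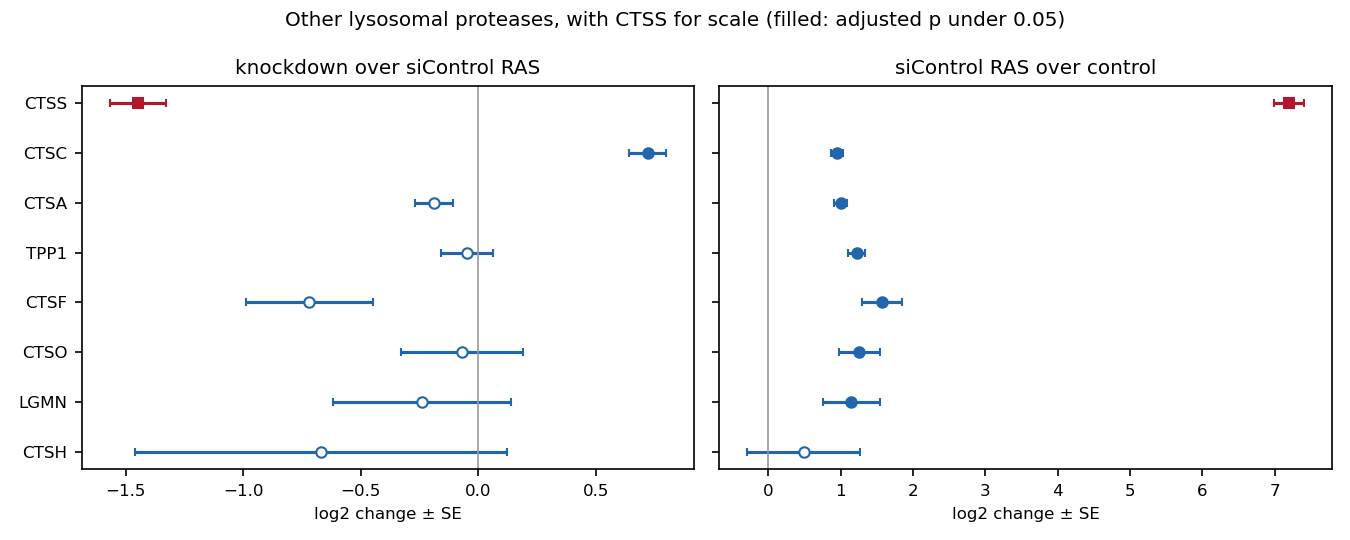
Fitted log2 change with its SE for 7 other lysosomal proteases (circles) and for CTSS (square) in knockdown over siControl RAS cells and in siControl RAS over control cells; filled symbols passed an adjusted p under 0.05. CTSC is filled and to the right of 0 in both panels, with CTSS to the left in knockdown cells.

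A list of 20 genes that tag, sort or regulate lysosomal proteases was also read. In siControl RAS over control cells 8 rose and 3 fell (median log2 change 0.25, beside -0.0037 over all genes tested, of which 24.0% were called higher and 21.9% lower), so the share called was near the background. GRN, whose product progranulin is carried to lysosomes, rose by 1.39 ± 0.09 (adjusted p = 3.98e-12) and SCARB2, a receptor that carries an enzyme to lysosomes, by 1.32 ± 0.09 (adjusted p = 4.45e-15). TMEM192, a lysosomal membrane protein, fell to 10.3 CPM in siControl RAS cells, against 43.5 CPM in control cells (log2 change -2.08 ± 0.23, adjusted p = 1.85e-09). TFE3, an activator of lysosomal genes, fell by 0.46 on the log2 scale (adjusted p = 0.000557).

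In knockdown over siControl RAS cells 5 of these 20 rose and 3 fell, where 15.5% of all tested genes were called; the 8 calls became 5 without siControl RAS replicate 1 or 3 or without knockdown replicate 1. TMEM192 rose by 0.90 ± 0.23 (adjusted p = 0.00585) and MITF, a relative of TFE3, by 0.80 ± 0.15 (adjusted p = 0.000113). SCARB2 fell to 222 to 251 CPM in knockdown libraries, against 326 to 357 CPM in siControl RAS libraries (adjusted p = 1.88e-05), and PSAP, the precursor of the saposins that help lipid breakdown, fell by 0.30 on the log2 scale (adjusted p = 0.00257). SORT1, a sorting receptor, was the 1 gene of the list called in R298P over knockdown cells (log2 change 0.52 ± 0.11, adjusted p = 0.00769). The background there was 1.09% of all tested genes called (0.540% higher). In wild-type over knockdown cells 0 were called by edgeR, DESeq2 or limma-voom. At an unadjusted p under 0.05, 1 was higher, again SORT1 (log2 change 0.34 ± 0.11, adjusted p = 0.273). Over all tested genes edgeR called 0.621% in that comparison. Between R298P and wild-type cells edgeR called 0 of the 20, beside 0.0222% of all tested genes.

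A list of 14 genes whose proteins are commonly given as cathepsin substrates was read at the RNA level. In siControl RAS over control cells 11 rose and 1 fell (median log2 change 1.04, beside -0.0037 over all genes tested). Of all genes tested, 24.0% were called higher and 21.9% lower. GRN and PSAP are on this list as well as on that of sorting genes. COL1A1, the main fibrillar collagen chain, reached 11896 CPM in siControl RAS cells, against 2698 CPM in control cells (log2 change 2.14 ± 0.05, adjusted p = 2.88e-28). CD74, the invariant chain that CTSS trims in antigen-presenting cells, had 71 counts in siControl RAS libraries and 0 in control libraries, at least 23.9-fold higher when 3 counts over the control group are taken as the floor. ELN, elastin, fell to 0.300 CPM in siControl RAS cells, against 10.6 CPM in control cells (log2 change -4.97 ± 0.81, adjusted p = 4.42e-06).

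In knockdown over siControl RAS cells 8 of the 14 fell, where 8.06% of all tested genes were called lower, and 0 rose, also with DESeq2 and limma-voom finding 0 higher and with 0 higher at an unadjusted p under 0.05. FN1, fibronectin, fell to 2422 ± 149 CPM in knockdown cells, against 5372 ± 305 CPM in siControl RAS cells (SD, n = 3 each; log2 change -1.15 ± 0.06, adjusted p = 2.62e-17). IGFBP3, a carrier of insulin-like growth factors, fell by 1.03 on the log2 scale (adjusted p = 0.00188). With METTL14 supplied, 3 of the 14 were called higher in R298P over knockdown cells, where 0.540% of all tested genes were called higher. For wild-type over knockdown cells the count was 2, beside 0.326% of all tested genes, and became 1 without knockdown replicate 3. FN1 rose by 0.32 ± 0.06 in R298P over knockdown cells (adjusted p = 0.000706) and by 0.29 ± 0.06 in wild-type over knockdown cells (adjusted p = 0.00323). LAMB1, a laminin chain of basement membranes, rose by 0.32 ± 0.06 in R298P over knockdown cells (adjusted p = 0.00447) and was not called in wild-type over knockdown cells (adjusted p = 0.706). COL1A1 rose by 0.30 ± 0.05 in R298P over knockdown cells (adjusted p = 0.000148) and by 0.33 ± 0.05 in wild-type over knockdown cells (adjusted p = 1.80e-05). Between R298P and wild-type cells 0 of the 14 were called by edgeR, beside 0.0222% of all tested genes. At an unadjusted p under 0.05, 2 were higher in R298P cells.

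The genes whose levels ran most like those of a member were looked up over the 15 libraries (Pearson's r of log2 CPM, a description across libraries that share 5 group means). CTSS went with IGFBP5, a binding protein of insulin-like growth factors (r = 0.998), and with IER3 (0.997), and among the members with CTSK (0.996). CTSK went with ACP3 and POSTN (0.996 each), the second of which encodes the matrix protein periostin. CTSB went with KLHL5 (0.994) and COL1A1 (0.992), CST1 with the chemokine gene CXCL1 (0.994) and COL1A1 (0.992), and CST3 with DENND2B (0.985) and PXDN (0.980). The highest r was lower for CTSL (0.904 with SEC61B) and CTSZ (0.894 with LINC02977). CSTB ran against CTSS (r = -0.803).

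Reads shared with other genes bear on a few members. All 12 listed pseudogenes of CTSL and the cystatins were at 0 in the table, and CTSV, the close relative of CTSL, had 13 counts in all. In GENCODE 29 CTSB overlaps a second annotated gene with 110 counts over the 15 libraries and CST3 another with 33 counts, against at least 1886 counts in every group for each of these members; the sources used here do not say whether strand was used in counting.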

How the data were processed

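RNA of 15 IMR90 libraries was read with the Lexogen QuantSeq 3′ kit, per the labels. The authors deposited counts per Ensembl gene, whole numbers that are not normalised. Per the submitters' processing notes, the tools included Bowtie2 and RSEM 1.2.12 and the build was hg19, with no role stated; strand use, annotation and filters were not stated in any source used. Where the genotype labels write knockout and knock-in, the protocols give siRNA and lentivirus, and the protocols are followed. That knockdown cells carried a vector comes from the samples' short descriptions; for siControl RAS and control cells no source used here says whether there was one.

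Symbols were matched by Ensembl ID for 52301 IDs (90.6%), for names alone. All libraries were fitted together in edgeR 4.0.16 (R 4.3.3) with a coefficient per group, TMM factors (0.947 to 1.06), edgeR's own filter on low counts and a two-sided quasi-likelihood F test with robust shrinkage; the spread was 16.7% (biological coefficient of variation) on 10 residual degrees of freedom. Calls are at a p under 0.05 after Benjamini-Hochberg adjustment over 13516 genes. SE is of the log2 change, SD is over libraries of TMM-normalised CPM. The CST1 and CST4 rows were replaced by their sum in a separate fit. The sums behind ratios over control are raw counts over effective library sizes, with exact conditional intervals. An exact permutation test of 3 against 3 cannot go below p = 0.1 and was not used. The fit was tested on simulated data.

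The members, lists and rules were chosen with earlier results of these data known. Every member was named in every main comparison; from each list, called genes with the 2 largest changes per direction could be named, and for each member the 2 genes most like it over 15 libraries (prior count 2). Each add-back was also set against control, for the order of levels alone. CTSC in the add-backs, CTSF in knockdown cells, LAMB1 in wild-type cells and the marker genes are named beside these as values. Over 30 pairs of libraries with the same replicate number in different groups, the correlation of deviations from group means was -0.0541 to 0.0681. These values weigh all tested genes alike, low ones included, so they cannot exclude that the numbers pair libraries. Within groups no library was a copy of another (chi-square per degree of freedom 3.53 to 8.63). Alternatives were DESeq2 1.42.0, limma-voom (limma 3.58.1), other size factors and filters, the 2 groups alone, a replicate block and leaving out each library.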

Additional observations from a re-analysis of the deposited data

How the results depend on the processing

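Of 33 called results for single members, 25 were called under each alternative run and 0 changed sign. With a replicate block the knockdown over siControl RAS comparison had 2215 called genes, beside 2100 without it, and no call of a member changed. Whether the replicate numbers pair libraries is not known. Between siControl RAS and wild-type cells CST4 was level (log2 change -0.004) and its sign turned with upper-quartile factors (0.023), no filter (0.001), a filter of at least 1 CPM in 3 libraries (3.77e-04), limma-voom (0.144), the replicate block (0.030) and the 2 groups alone (0.006). The family list had 2 calls in knockdown over siControl RAS with DESeq2 and with limma-voom, beside 1. Members called in R298P over knockdown numbered 1 without the filter and 1 with the 2 groups alone, and in wild-type over siControl RAS 5 with the 2 groups alone.

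Leaving out 1 library at a time gave these ranges. In knockdown over siControl RAS the sorting list had 5 to 8 calls, CTSD changed by -0.072 to 0.173 and CTSZ by -0.208 to 0.060. In wild-type over knockdown 1 to 1 members and 1 to 3 substrates were called, and the changes were -0.050 to 0.048 for CTSK, -0.127 to 0.118 for CTSD and -0.008 to 0.225 for CST3. In R298P over knockdown 1 to 3 members were called, CTSD changed by -0.143 to 0.101 and CTSZ by -0.059 to 0.098. In R298P over wild-type CTSL changed by -0.149 to 0.032, CTSD by -0.047 to 0.006 and CSTB by -0.103 to 0.143. In wild-type over siControl RAS 4 to 5 substrates were called, CST4 changed by -0.291 to 0.195 and CSTB by -0.054 to 0.071. With all libraries 7 of the 14 substrates were called in that comparison, all lower, where 6.67% of tested genes were called lower. In R298P over siControl RAS 2 to 4 members and 3 to 5 substrates were called, with CTSD at -0.010 to 0.053, CTSZ at -0.190 to 0.077, CSTB at -0.084 to 0.161 and the CST1 and CST4 sum at -0.569 to -0.385. In knockdown over control CTSD changed by -0.016 to 0.229. Fewer libraries also widen the error; no other cause was tested. CST1, CST4 and CTSS had 4, 1 and 17 counts in control cells, so folds over control are coarse for them.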
